A study of Arabidopsis thaliana with 8 samples.

Results

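The genes described here are 9 Arabidopsis loci of the LEA, LTI and KIN stress protein families and a co-listed transporter, out of 27655 gene rows measured by RNA-seq in 8 seedling libraries. They are LEA7 (AT1G52690), LEA4-5 (AT5G06760), AT3G02480, AT3G17520, LTI65 (AT5G52300), LTI78 (AT5G52310), KIN1 (AT5G15960), KIN2 (AT5G15970) and the amino acid transporter family gene AT2G41190. They were picked by identifier because most had stood out as low in unstressed prp43a seedlings of these same libraries, so their levels at control temperature are given as a description and carry no test. All 9 passed the filter on low values, which kept 19697 rows. The choice fits 6 of the 9 genes: LTI78, KIN1 and KIN2 had overlapping levels in the prp43a and wild-type libraries at control temperature.

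The prp43a line (prp43a-1) is a single T-DNA insertion line in the Columbia (Col-0) background, and plain Col-0 was the wild type (WT). The series title places PRP43a in the disassembly of spent spliceosomes. There were 4 groups of 2 libraries each: prp43a at control temperature, WT at control temperature, prp43a after heat and WT after heat. All were whole seedlings aged 7 days, raised at 22 °C on sucrose medium in days of 16 h light to 8 h dark, and the heat groups were then kept at 38 °C for 16 h. By their titles, both libraries of a group are biological replicates. The hour of harvest was not given, so the hour of the day and the heat cannot be told apart.

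Late embryogenesis abundant (LEA) proteins are very hydrophilic proteins that accumulate in drying seeds and in water-stressed leaves and roots, where they help to keep other proteins and membranes intact. Their genes are classic targets of the hormone abscisic acid (ABA). ABA receptors inhibit type 2C phosphatases, which frees SnRK2 kinases to activate bZIP factors of the ABF and ABI5 group, and these factors bind the ABA-responsive element (ABRE). A second route works largely without ABA: CBF and DREB2 factors, made in the cold or on drying, bind the dehydration-responsive or C-repeat element (DRE/CRT). LTI65, also called RD29B, is known mainly as an ABA-route gene, whereas LTI78, also called RD29A or COR78, answers to both routes. KIN1 and KIN2 (also COR6.6) encode very small hydrophilic proteins induced by cold, drying and ABA.

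Levels are in TPM, a transcript share corrected for gene length, and 4071035 to 4783632 reads per library could be recovered from the deposited values. Libraries of the same group correlated at r = 0.983 to 0.985 across genes. On the second principal component, which held 2.39% of the variance, prp43a control libraries lay at 16.8 and 24.4, WT control library 1 at -34.2 and WT control library 2 at -6.43. Which locus is PRP43a is not stated in the sources used here. Of 2 Prp43-type helicase loci examined, AT3G62310 had 1.68 and 1.44 TPM in prp43a control libraries against 26.7 and 29.8 TPM in WT control libraries, and 10.3 and 8.24 TPM in prp43a heat libraries against 64.6 and 72.4 TPM in WT heat libraries. It was lower by both limma tests (log2 difference -3.52, adjusted p = 2.3e-05 at control temperature, and -2.76, adjusted p = 0.00023 after heat). The other locus, AT2G47250, was not called: it had 49.8 and 54.1 TPM in prp43a control libraries against 34.7 and 32.1 TPM in WT control libraries, higher without overlap (log2 difference 0.62, limma adjusted p = 0.077), and 101 and 103 TPM in prp43a heat libraries against 98.4 and 90.1 TPM in WT heat libraries. Leaf markers summed to 65498 to 66326 TPM in prp43a and 66302 to 68583 TPM in WT control libraries, and to 15214 to 19796 TPM in prp43a and 17739 to 18187 TPM in WT heat libraries. Of 10 seed storage and oil body markers, 6 were listed at 0 in all 8 libraries, the cruciferins CRU3 and CRU2 and the oleosin OLEO1 among them, and the list summed to 3.04 to 4.61 TPM in prp43a and 3.60 to 5.90 TPM in WT control libraries, and to 4.21 to 12.6 TPM in prp43a and 6.42 to 7.64 TPM in WT heat libraries. Root markers summed to 1181 to 1376 TPM in prp43a control libraries and 1101 to 1147 TPM in WT control libraries, and to 120 to 121 TPM in prp43a and 112 to 153 TPM in WT heat libraries. Most of the root sum was PYK10, at 1298 and 1147 TPM in prp43a and 1075 and 1109 TPM in WT control libraries. Of the 8 root markers, 7 were higher in prp43a than in WT at control temperature, with a median log2 difference of 0.67. The leaf and root lists were thus lower in every heat library than in any control library, alongside all the heat differences given below. The seed list was not. The part of these tissue levels in the results was not tested.

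To show what the promoters of genes with different behaviour look like, the 250 bases before the annotated start are given for 4 of the genes, read 5′ to 3′ on the gene's strand from the RefSeq genome, build TAIR10.1. They are LEA7 (chr1:19619474-19619723, plus strand), the neighbours LTI65 (chr5:21236771-21237020, plus strand) and LTI78 (chr5:21240467-21240716, plus strand), and KIN2 (chr5:5211469-5211718, plus strand). Capitals mark matches on either strand to the ABRE core ACGTG, the DRE/CRT core CCGAC or the heat shock element GAANNTTC.
LEA7: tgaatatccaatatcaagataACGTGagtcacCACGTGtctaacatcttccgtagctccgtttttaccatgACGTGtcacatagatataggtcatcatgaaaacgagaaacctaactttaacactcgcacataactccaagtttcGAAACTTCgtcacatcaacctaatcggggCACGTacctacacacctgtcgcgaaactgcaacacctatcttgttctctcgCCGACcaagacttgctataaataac
LTI65: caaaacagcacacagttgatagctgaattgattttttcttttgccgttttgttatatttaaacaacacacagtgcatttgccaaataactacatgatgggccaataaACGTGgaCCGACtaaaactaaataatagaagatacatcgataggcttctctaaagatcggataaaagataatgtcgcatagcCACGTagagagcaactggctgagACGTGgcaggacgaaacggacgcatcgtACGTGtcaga
LTI78: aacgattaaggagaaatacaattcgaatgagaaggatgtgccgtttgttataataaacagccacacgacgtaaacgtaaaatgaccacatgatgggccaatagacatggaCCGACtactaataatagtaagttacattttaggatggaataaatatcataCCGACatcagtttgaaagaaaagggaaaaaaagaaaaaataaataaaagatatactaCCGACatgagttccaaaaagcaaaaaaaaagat
KIN2: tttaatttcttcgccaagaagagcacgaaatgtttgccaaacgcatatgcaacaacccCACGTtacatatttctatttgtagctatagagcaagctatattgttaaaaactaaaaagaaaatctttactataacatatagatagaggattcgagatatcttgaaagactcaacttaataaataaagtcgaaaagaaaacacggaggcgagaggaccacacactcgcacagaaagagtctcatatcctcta
LEA7 and LTI65 each hold 4 ABRE cores in this stretch. LTI78 holds 3 DRE/CRT cores and no ABRE core, and KIN2 holds 1 ABRE core.

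At control temperature the 4 LEA genes were close to silent in prp43a and clearly expressed in WT. LEA7, a LEA family gene of 3 exons on chromosome 1 (chr1:19619724-19621534, plus strand), had 0.743 and 1.59 TPM in prp43a control libraries against 22.6 and 34.9 TPM in WT control libraries. That is 6 reads in prp43a against 147 in WT over the pairs of libraries, a level 25.0-fold lower in prp43a (95% counting interval 11.2 to 69.3-fold, which covers counting error only). LEA4-5, a group 4 LEA gene on chromosome 5 (chr5:2089445-2090430, minus strand), had 1.12 and 1.19 TPM in prp43a control libraries and 14.3 and 15.1 TPM in WT control libraries, 12.8-fold lower in prp43a (counting interval 5.60 to 35.9-fold). In both genes the lower WT library stood far above the higher prp43a library. In bulk seedlings, fewer cells that express a gene and less RNA per cell cannot be told apart.

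AT3G02480 and AT3G17520 are also annotated as LEA family genes. AT3G02480 (chr3:512220-513036, plus strand) had 3.05 and 3.92 TPM in prp43a control libraries against 26.1 and 45.9 TPM in WT control libraries, 10.4-fold lower in prp43a (counting interval 5.60 to 21.4-fold). AT3G17520 (chr3:5999174-6000447, minus strand), the only one of the 9 genes without an intron, had 1.32 and 0.564 TPM in prp43a control libraries and 8.17 and 13.7 TPM in WT control libraries, 11.5-fold lower in prp43a (counting interval 5.34 to 29.6-fold). Their WT libraries differed from each other by a larger margin than those of LEA4-5, library 2 being the higher, but neither gene had overlapping genotypes.

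After heat the 4 LEA genes were near the floor of detection in both genotypes, set here at 3 reads per library. LEA7 was at 0 and 0.881 TPM in prp43a heat libraries and at 0.404 and 0.405 TPM in WT heat libraries, which is 2 reads in each genotype. AT3G02480 was at 0.737 and 1.45 TPM in prp43a heat libraries and at 0.664 and 0.666 TPM in WT heat libraries. AT3G17520 was listed at 0 in both prp43a heat libraries and at 0.573 and 0 TPM in WT heat libraries. For these genes no library of either heat group held more than 3 reads, so no fold between genotypes is given and a difference was not detectable at this depth. LEA4-5 had 0.449 and 0.882 TPM in prp43a heat libraries and 0.809 and 1.62 TPM in WT heat libraries, and the groups overlapped.

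For these genes the WT heat libraries lay far below the WT control libraries, while both prp43a groups were low. In WT, LEA7 had 2 reads over both heat libraries against 147 over both control libraries, 71.3-fold lower after heat (counting interval 19.4 to 594-fold). The same ratio was 54.3-fold for AT3G02480 (14.7 to 454-fold), 38.3-fold for AT3G17520 (10.3 to 322-fold) and 12.1-fold for LEA4-5 (5.31 to 34.1-fold). In prp43a, LEA7 had 2 reads after heat against 6 at control temperature, and the counting interval of that ratio ran from 0.0381 to 2.16. AT3G02480 had 3 reads after heat against 11 at control temperature in prp43a, and AT3G17520 had 0 against 7. For LEA4-5 no prp43a library held more than 3 reads, and no fold is given. These comparisons share the control libraries with the one that chose the genes, so they too are descriptions with no test.

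**Figure D1:**
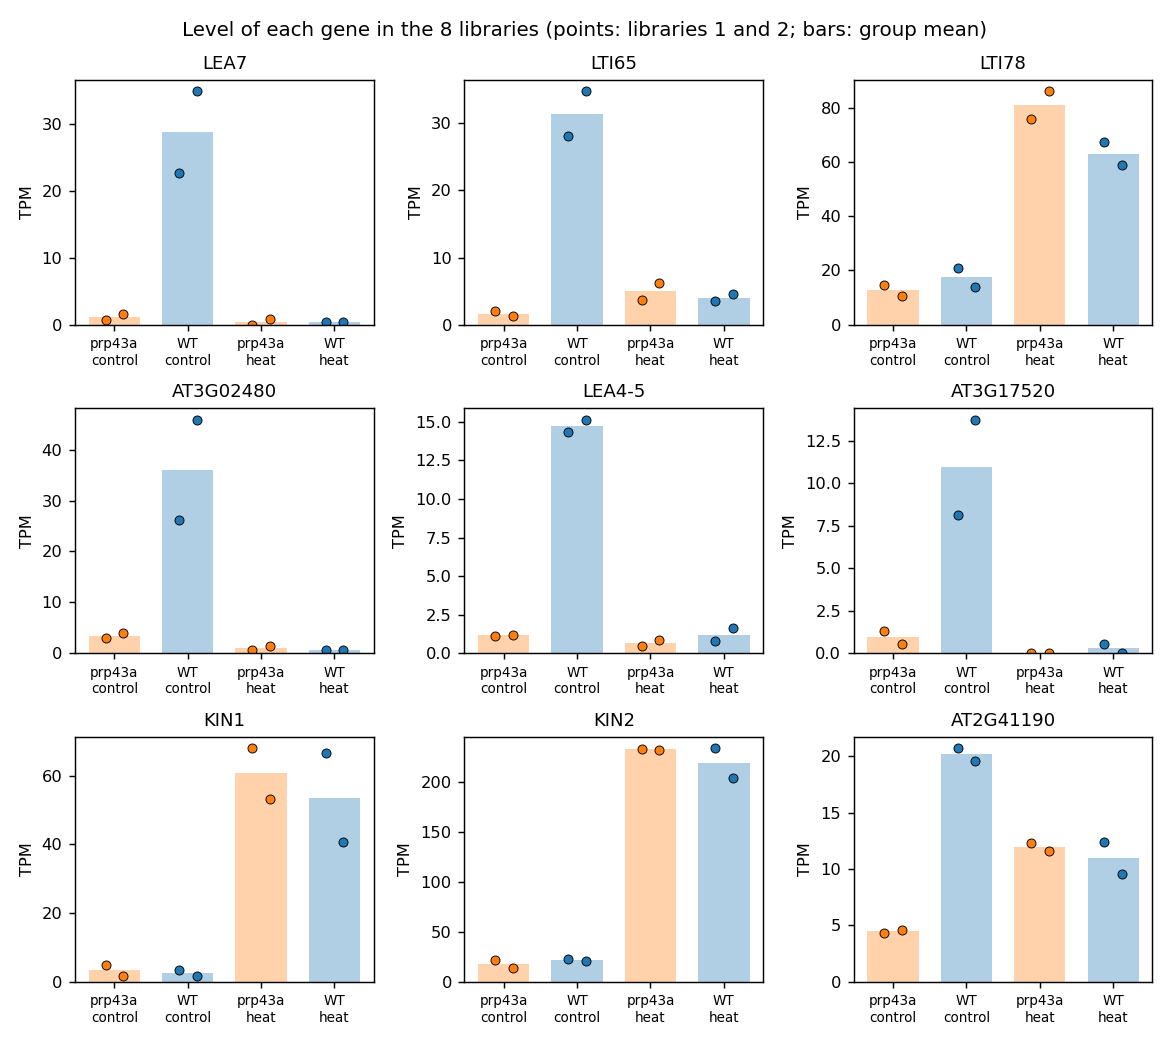
TPM (y axis, linear, a scale of its own per gene) of each of the 9 genes in the 4 groups (x axis). Points are libraries 1 and 2 of a group and bars are group means, with prp43a in orange and WT in blue. LEA7, LEA4-5, AT3G02480 and AT3G17520 are high in WT control libraries alone, LTI78, KIN1 and KIN2 are high in the heat libraries of both genotypes, and LTI65 and AT2G41190 are low in prp43a control libraries with both heat groups between the control groups.

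LTI65 and LTI78 lie side by side on chromosome 5 in the same orientation, with 1185 bases and no protein-coding gene between them, yet their levels differed in order across the groups. LTI65 (chr5:21237021-21239531, plus strand) had 2.01 and 1.32 TPM in prp43a control libraries against 28.1 and 34.7 TPM in WT control libraries, 18.7-fold lower in prp43a on 21 against 385 reads. After heat it had 3.73 and 6.23 TPM in prp43a libraries and 3.53 and 4.55 TPM in WT libraries. Its heat levels thus overlapped between genotypes and lay between its control levels.

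Heat and control levels of LTI65 were ordered in opposite ways in prp43a and WT. In prp43a the heat level was 2.98-fold higher than the control level (log2 difference 1.15, SE 0.26), and every heat library was above every control library. In WT the heat level was 7.78-fold lower than the control level (log2 difference -2.68, SE 0.26), again with no overlap. Whether these changes differ was not tested, because the control libraries served to choose the gene.

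LTI78 (chr5:21240717-21243644, plus strand) had 14.5 and 10.8 TPM in prp43a control libraries and 20.9 and 14.1 TPM in WT control libraries. The prp43a library with the higher level was above the WT library with the lower level. After heat LTI78 had 75.9 and 86.0 TPM in prp43a libraries and 67.3 and 58.7 TPM in WT libraries, so both prp43a libraries were higher. Its heat level was 6.38-fold above the control level in prp43a (log2 difference 2.60, SE 0.19) and 3.61-fold above it in WT (1.81, SE 0.19).

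KIN1 and KIN2 form the other pair of neighbours, 892 bases apart on chromosome 5 with no protein-coding gene between them. Both coding sequences are 201 bases long and 95.0% of aligned bases are identical. None of the 755 stretches of 75 bases in the KIN1 mRNA, the length of a sequenced read, occurs unchanged in the KIN2 mRNA. How the authors assigned reads that match more than 1 gene is not given in the sources used here, so the split of reads between KIN1 and KIN2 is uncertain.

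KIN1 (chr5:5209717-5210826, plus strand) had 4.86 and 1.73 TPM in prp43a control libraries and 3.46 and 1.69 TPM in WT control libraries. After heat it had 68.0 and 53.3 TPM in prp43a libraries and 66.5 and 40.6 TPM in WT libraries. The genotypes overlapped at both temperatures, and no heat library came near a control library: the heat level was 18.1-fold higher in prp43a (log2 difference 3.93, SE 0.37) and 20.9-fold higher in WT (3.94, SE 0.37). KIN2 (chr5:5211719-5212743, plus strand) was the gene with the highest level of the 9 after heat. It had 21.5 and 13.4 TPM in prp43a control libraries against 23.0 and 21.0 TPM in WT control libraries, and 232.9 and 232.5 TPM in prp43a heat libraries against 233.7 and 204.1 TPM in WT heat libraries. The heat level of KIN2 was 13.2-fold above its control level in prp43a (log2 difference 3.70, SE 0.18) and 9.96-fold above it in WT (3.26, SE 0.18).

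AT2G41190 (chr2:17167279-17170559, minus strand) is annotated as a transmembrane amino acid transporter family gene and, with up to 11 exons in a transcript, has the most exons of the 9. It had 4.32 and 4.62 TPM in prp43a control libraries against 20.7 and 19.6 TPM in WT control libraries, 4.52-fold lower in prp43a. After heat it had 12.3 and 11.6 TPM in prp43a libraries and 12.4 and 9.57 TPM in WT libraries, with overlap. As with LTI65, its heat levels lay between its control levels: the log2 difference of heat minus control was 1.24 (SE 0.17) in prp43a and -0.83 (SE 0.17) in WT. All 4 libraries of each genotype kept to that order without overlap.

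Over the 9 genes, 6 had both prp43a control libraries below both WT control libraries, which held for 17.9% of all genes tested. Limma called 14 genes as lower in prp43a there, or 0.0711% of all genes, and genes of the 9 are among these 14. The 9 genes were chosen on this contrast, so no test result is given for them and nothing is read from these counts. The log2 differences at control temperature ran down to -3.78 (SE 0.36) for LEA7, -3.61 (SE 0.26) for LTI65 and -3.00 (SE 0.30) for AT3G02480. They were -0.43 (SE 0.19) for LTI78, -0.35 (SE 0.18) for KIN2 and 0.21 (SE 0.37) for KIN1. The sign for KIN1 held in 15 of 17 alternative settings and turned without prp43a control library 1 (-0.34) or WT control library 2 (-0.16). The median over the 9 genes was -2.61, against 0.01 over all genes, and -2.90 without WT control library 1, which stood apart on the second component.

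After heat, the comparison whose libraries did not choose the genes, 6 of the 9 had at least 1 library above 3 reads and could be compared between prp43a and WT. LEA7, AT3G02480 and AT3G17520 had at most 2 reads in every heat library, so no call was possible for them at this depth and they are not counted. LEA4-5 reached the filter on low values through its control libraries and had 1 to 4 reads per heat library. None of the 6 was called by limma's test (adjusted p = 1 for each), against 0.00508% of all genes, which is AT3G62310 alone. An unadjusted p below 0.05 was found for 899 genes (4.56%) and for none of the 6. LTI78 had the lowest unadjusted p of them, 0.0913, with a log2 difference of 0.36 and a 95% interval of -0.07 to 0.78. For LTI65 the log2 difference of prp43a minus WT was 0.22 with an interval of -0.36 to 0.81. For AT2G41190 it was 0.12 with an interval of -0.27 to 0.50.

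For the remaining genes, KIN2 differed by 0.09 (interval -0.30 to 0.48), KIN1 by 0.21 (-0.62 to 1.04) and LEA4-5 by -0.40 (-1.01 to 0.21). The groups did not overlap for LTI78 and AT3G02480, both higher in prp43a, as was the case for 19.4% of all genes, and AT3G02480 rests on at most 2 reads per library. The median of the 6 genes above the floor was 0.16, against 0.03 over all genes. A p that misses the threshold does not show equal levels. Permuting 2 libraries against 2 cannot give a p below the threshold, so the test rests on limma, which borrows its spread from all genes. The spread of each gene was also pooled over all 8 libraries. The control libraries that chose the genes thus enter the SE, interval and p after heat, though not the difference itself.

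**Figure D2:**
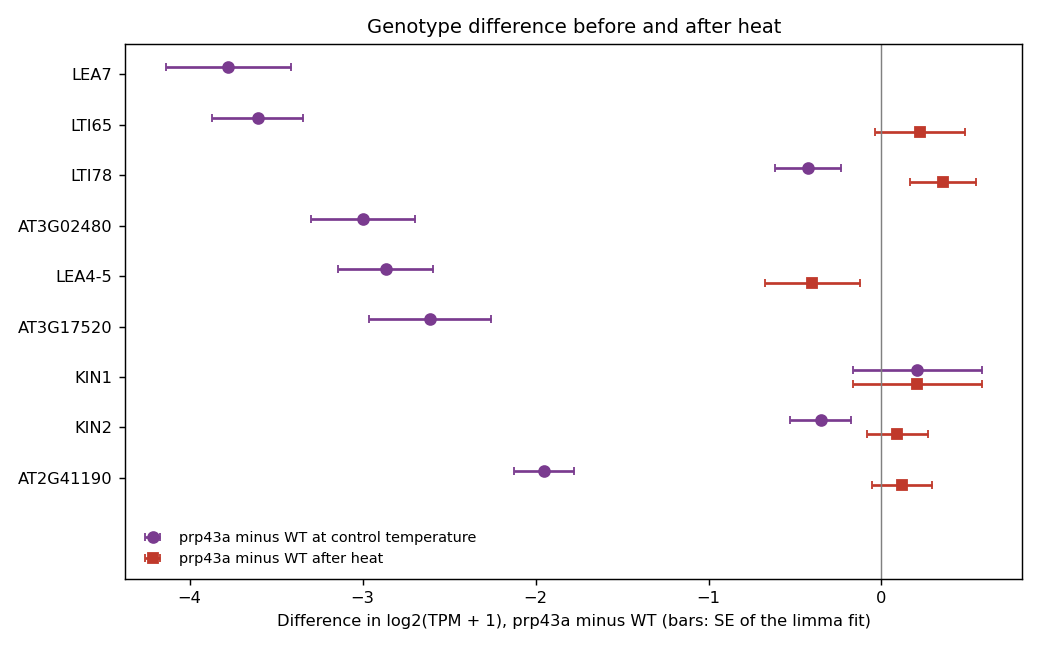
Difference in log2(TPM + 1), prp43a minus WT (x axis), for each gene (y axis), at control temperature (circles) and after heat (squares), with bars for the SE of the limma fit. At control temperature 6 genes lie between -3.78 and -1.95 and LTI78, KIN1 and KIN2 lie within 0.43 of 0, and after heat the genes with a library above 3 reads lie between -0.40 and 0.36.

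The levels fell into distinct profiles over the 8 libraries. In log2(TPM + 1), LEA7 correlated at r = 0.98 with AT3G02480 and with LEA4-5 and at 0.96 with AT3G17520, and LTI78, KIN1 and KIN2 correlated with each other at 0.98 to 0.99. LEA7 against KIN1 gave r = -0.71, and LTI65 against its neighbour LTI78 gave r = -0.14. AT2G41190 was closest to LTI65 (r = 0.87). These coefficients are over n = 8 libraries that the genes share, are shaped by the split into control and heat, and are descriptions with no p.

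Of 16206 other genes with a group mean of at least 5 TPM, the profile most like the average of the 9 was that of AT1G24580 (r = 0.93 over 8 libraries). AFP1, which encodes an ABI5-binding protein, followed at 0.92 and the glutathione transferase gene GSTU7 at 0.91. AT3G61080 (0.90), AT4G20930, AT3G22530, AT1G01800 and the chitin receptor kinase gene CERK1 (0.88 each), and AT5G40670 and CYP706A2 (0.87 each) made up the 10 most like it. AT1G24580 averaged 0.976 TPM in prp43a control libraries and 6.22 TPM in WT control libraries. CYP706A2 averaged 0.465 TPM in prp43a control libraries and 5.87 TPM in WT control libraries. Since the 9 genes have unlike profiles, LEA7 alone was also used, a choice made after the values were seen: its nearest gene outside the 9 was the dehydrin gene RAB18 (RAB18_2 in the table, r = 0.97). The other genes outside the 9 among its 10 nearest were AT5G15500, B ALPHA and AT1G71980 (0.96 each), AIG1 (0.95), PR1 (0.94) and FLOT1 (0.93). PR1 averaged 1.58 TPM in prp43a control libraries (0.372 and 2.79) and 25.6 TPM in WT control libraries (26.7 and 24.5). All these genes were ranked on the same 8 libraries against profiles of genes chosen as low in prp43a control libraries. Control levels of this order therefore follow from the ranking and are no separate evidence.

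The related genes of these pathways are read against the 0.0711% of all genes called at control temperature and the 8.94% with an unadjusted p below 0.05 there. None of 18 tested LEA genes outside the 9 and outside the dehydrins, of 36 listed, passed limma's test in either direction, with an unadjusted p below 0.05 for 2 of them. Their median log2 difference was -0.17, with 6 above and 11 below 0. SAG21, a LEA gene of senescence and oxidative stress, had 188 and 208 TPM in prp43a and 197 and 168 TPM in WT control libraries. LEA14 had 35.9 and 32.0 TPM in prp43a and 43.7 and 41.8 TPM in WT control libraries. Among the 7 tested dehydrins, which are the group 2 LEA proteins, 1 passed as lower, 4 had an unadjusted p below 0.05, and all 7 lay below 0 with a median of -0.52. That gene was RAB18_2, at 11.7 and 7.91 TPM in prp43a control libraries against 79.5 and 102 TPM in WT control libraries (log2 difference -3.10, SE 0.22, adjusted p = 0.0006), and it passed in 17 of 17 alternative settings.

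Of 22 tested genes known to be induced by ABA or water deficit, of 24 listed, 2 passed limma's test as lower in prp43a at control temperature, none as higher, and all 22 had a difference below 0 (median -1.04, against 0.01 over all genes, of which 46.6% lay below 0). P5CS1, the rate-limiting enzyme of proline synthesis, had 34.7 and 30.6 TPM in prp43a against 94.9 and 71.6 TPM in WT control libraries (log2 difference -1.31, adjusted p = 0.014). LTP3, a lipid transfer protein gene with a close relative in LTP4, had 4.80 and 2.33 TPM in prp43a against 24.3 and 17.8 TPM in WT control libraries (log2 difference -2.31, adjusted p = 0.020). P5CS1 lost its call in 8 of 17 alternative settings, among them leaving out any 1 library other than WT control library 2. LTP3 lost its call in 9 of 17, among them leaving out any 1 library other than prp43a control library 1 or WT control library 2. Over all alternatives the highest adjusted p was 0.23 for P5CS1 and 0.24 for LTP3. An unadjusted p below 0.05 was found for 18 of the 22, against 8.94% of all genes. The list was drawn up with earlier results of these data known, and is no independent evidence of a direction.

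The listed regulators of the ABA and DRE/CRT routes, which include SnRK2 kinases and ICE1 as well as promoter-binding factors, showed no call at control temperature. None of 10 tested regulators, of 15 listed, passed limma's test, with an unadjusted p below 0.05 for 1 of them, and 9 of the 10 lay below 0, with a median log2 difference of -0.19. ABF3, a bZIP factor of the ABA route, had 30.8 and 29.2 TPM in prp43a and 43.8 and 37.7 TPM in WT control libraries (log2 difference -0.43, adjusted p = 0.39). The kinase gene SNRK2.2 had 51.9 and 47.4 TPM in prp43a and 55.7 and 46.5 TPM in WT control libraries. None of the 9 ABA receptor genes listed here passed limma's test and none had an unadjusted p below 0.05. Their median was 0.08, and PYL4 had 111 and 118 TPM in prp43a against 110 and 119 TPM in WT control libraries. None of 9 cold-regulated genes passed, with an unadjusted p below 0.05 for 4, and 8 of the 9 lay below 0, against 46.6% of all genes, with a median of -0.54. This list overlaps others: COR15A and COR15B are also counted with the other LEA genes, and COR47 and LTI30 with the dehydrins. None of 8 root markers passed, with an unadjusted p below 0.05 for 3, and 7 of them lay above 0, with a median of 0.67.

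After heat, no gene of these lists was called between prp43a and WT. An unadjusted p below 0.05 was found for 2 of 18 other LEA genes and 1 of 22 ABA or water deficit genes, and for none of the dehydrins, regulators, receptors, cold-regulated genes or root markers. The ABA or water deficit list had a median of -0.13, with 7 genes above and 15 below 0. RAB18_2 had 8.19 and 9.50 TPM in prp43a heat libraries and 7.04 and 9.75 TPM in WT heat libraries, with overlap.

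**Figure D3:**
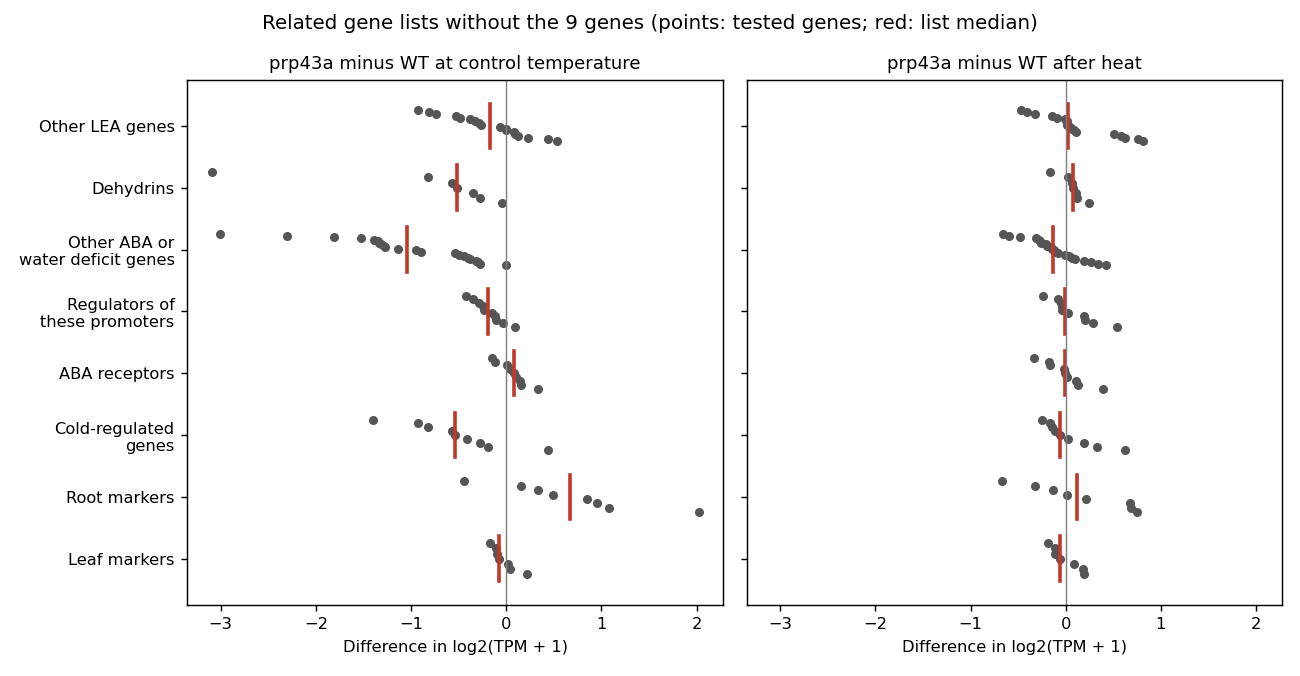
Difference in log2(TPM + 1), prp43a minus WT (x axis), of the tested genes of 8 related lists without the 9 genes (rows), at control temperature (left panel) and after heat (right panel). Points are genes and red bars are list medians. COR15A, COR15B, COR47 and LTI30 are plotted with the cold-regulated genes and also with the other LEA genes or the dehydrins. At control temperature the ABA or water deficit genes all lie at or below 0 with a median of -1.04, and after heat their median is -0.13.

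Heat called most of the 19697 genes tested, and the ABA or water deficit genes, the regulators and the other LEA genes had calls in both directions, while all calls among the root and leaf markers were lower. Against 43.1% of all genes called higher and 27.0% called lower after heat in prp43a, the ABA or water deficit genes had 7 higher and 6 lower of 22. In WT, where 42.4% of all genes were called higher and 27.6% lower, the same list had 2 higher and 10 lower. The split over all genes depends on scaling: with median-of-ratios scaling 6566 genes were higher and 6807 lower in prp43a, against 8492 and 5321 on the deposited values, and 6647 were higher and 6780 lower in WT, against 8342 and 5442. The galactinol synthase gene GolS1 was called higher in both genotypes, at 376 and 358 TPM in prp43a heat libraries against 16.6 and 11.9 TPM in prp43a control libraries, and at 422 and 375 TPM in WT heat libraries against 15.7 and 12.6 TPM in WT control libraries. Among the regulators, 6 were higher and 2 lower of 10 in prp43a, and 5 higher and 2 lower in WT. DREB2A, the drought and heat factor that binds DRE/CRT, was higher by 2.90 in prp43a (adjusted p = 0.00012) and by 2.41 in WT (adjusted p = 0.00044) on the log2 scale. The bZIP factors went both ways: ABF1 was called higher, and ABF2 and ABF3 were called lower, in both genotypes. Their log2 differences were 2.47 in prp43a and 2.26 in WT for ABF1, -1.02 and -1.32 for ABF2, and -1.25 and -1.70 for ABF3. ABI5 was called higher in prp43a alone (1.00, against 0.36 in WT), at low levels. It had 0.159 and 0.170 TPM in prp43a control libraries and 1.35 and 1.32 TPM in prp43a heat libraries. In WT it had 0.340 and 0.166 TPM in control libraries and 0.519 and 0.695 TPM in heat libraries. Whether its change differs between genotypes was not tested. ABF4 was not called. The other LEA genes had 10 higher and 5 lower of 18 in prp43a and 8 higher and 4 lower in WT.

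Among the 9 genes, 5 had heat libraries above and 3 had heat libraries below all control libraries in prp43a, as was the case for 51.9% and 33.9% of all genes. Those 3, AT3G02480, AT3G17520 and LEA4-5, had at most 6 reads in any prp43a library, and LEA4-5 had none above 3 reads. In WT, 3 lay above and 6 below, against 50.3% and 33.6% of all genes. The median change of all genes was itself 0.28 in prp43a and 0.25 in WT on the log2 scale. The 9 genes summed to 393 to 394 TPM in prp43a heat libraries and 39.1 to 53.4 TPM in prp43a control libraries, and to 320 to 386 TPM in WT heat libraries and 167 to 201 TPM in WT control libraries. KIN2 alone made up more than any other gene of the sum after heat.

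Beyond the 4 promoters shown, motif matches were counted in a window of 250 bases before to 50 bases after the annotated start of each gene, on both strands, with overlapping matches counted as 1 site. The ABRE core ACGTG was present in 7 of the 9 genes, with at least 2 sites in 6, whereas 26.7% of 27443 promoter windows held it and 6.19% held at least 2 sites. LEA7, LTI65 and AT3G02480 had 4 sites each, LEA4-5 had 3, AT3G17520 and KIN2 had 2 and KIN1 had 1. LTI78 and AT2G41190 had none in this window, from which nothing follows about the factors that bind them. The DRE/CRT core CCGAC was present in 6 of 9 genes, against 15.0% of all windows, and LTI78 held the most with 4 sites, 3 of them before the start. KIN1, KIN2 and AT2G41190 had none. The heat shock element GAANNTTC was found in LEA7 alone, at position -105 from the start, against 11.6% of all windows. No ABRE match overlapped a DRE/CRT match in these windows, and a match is a run of letters and not a shown binding site.

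The neighbours share stretches of promoter sequence. The longest run of identical bases in the 250 bases before the start was 37 for KIN1 and KIN2 and 16 for LTI65 and LTI78, against 7 to 11 for the other 34 pairs of the 9 genes. Within the stretch shown, LTI65 and LTI78 have a DRE/CRT core at nearly the same distance from the start, at position -136 in LTI65 and -140 in LTI78. In LTI65 an ABRE core begins at position -143, just ahead of the DRE/CRT core. All but AT3G17520 have introns, as do 81.1% of 27444 nuclear protein-coding genes, and the table does not show how far the RNAs were spliced.

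**Figure D4:**
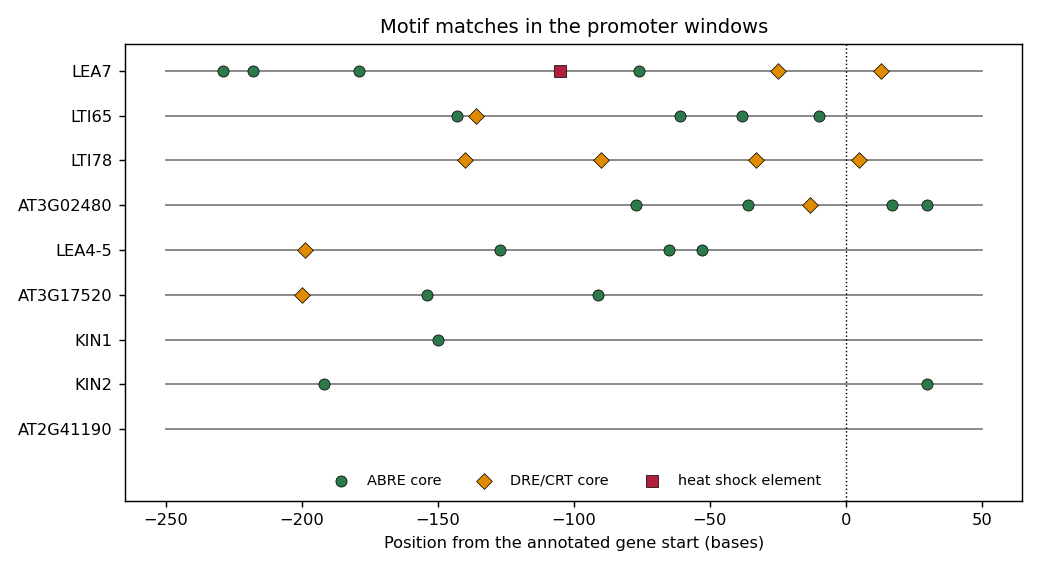
Position of motif matches relative to the annotated gene start (x axis, bases) in the promoter window of each gene (rows), on either strand. Circles are ABRE cores, diamonds DRE/CRT cores and squares heat shock elements. LEA7, LTI65 and AT3G02480 carry 4 ABRE cores each, LTI78 carries 4 DRE/CRT cores and no ABRE core, and AT2G41190 carries none of the 3 motifs.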

How the data were processed

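The libraries were 8 RNA-seq libraries of Arabidopsis seedlings, 2 in each of 4 groups that were read from the sample titles. Per the labels' protocols, total RNA was made into stranded mRNA libraries and sequenced as paired reads of 75 bases. The authors deposited 1 table of TPM values (a transcript share corrected for gene length) for 27655 gene rows and 8 libraries, per the file headers. Per the submitters' processing notes, the genome build was TAIR10. The sources used here do not give aligner, counter or annotation. As TPM are shares, strong rises of abundant genes push the rest down and strong falls push the rest up. The leaf markers, the list with the largest sums, were lower in every heat library than in any control library.

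With exon lengths of the TAIR10.1 annotation for 27445 rows, 99.23% of 126947 values up to 200 reads were whole multiples of 1 read within 0.05, which gave 4071035 to 4783632 reads per library. These units may be reads or read pairs. Counting intervals and floors (3 reads per library) rest on these recovered reads and cover counting error only.

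The 19697 genes that reached 1 TPM in 2 or more libraries entered a limma 3.58.1 fit (R 4.3.3) of log2(TPM + 1), with 1 mean per group, a mean-variance trend, Benjamini-Hochberg adjustment and 4 residual degrees of freedom, and called at adjusted p below 0.05. Fold changes on this scale understate the change of low genes; ratios of levels were also formed from group levels without a pseudocount. The fit was tested on simulated data. The 9 genes and all lists were chosen with earlier results of these data known. Named genes were the 9, the called genes of each list or up to 4 with the highest mean TPM, the 10 most alike in profile and both helicase loci; others were named after their values were seen. Motifs and positions are from the RefSeq genome TAIR10.1. There were 17 alternative settings: pseudocounts of 0.1 and 5, no filter and a filter of 5 TPM, median-of-ratios and quantile scaling, no trend, only the libraries compared, a replicate block, and leaving out each of the 8 libraries.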

Additional observations from a re-analysis of the deposited data

Results flagged for a closer look

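LTI65 and AT2G41190 stand out because heat and control libraries were in opposite order in the genotypes. For LTI65 the log2 difference of heat minus control was 1.15 in prp43a, with every heat library above every control library, and -2.68 in WT, with every heat library below every control library. For AT2G41190 it was 1.24 in prp43a and -0.83 in WT, likewise without overlap. The difference between the genotypes was not tested, because the control libraries that enter it were used to choose the genes.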

How the results depend on the processing

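All members but KIN1 kept the sign of their control difference between prp43a and WT in 17 of 17 alternatives. The number of genes called in that comparison, 14, ran between 4 and 40 when 1 library was left out: it was 4 without prp43a control library 1, 5 without prp43a control library 2, 9 without WT control library 1, 40 without WT control library 2, 9 without WT heat library 1 and 8 without any other heat library. The median over the 9 genes, -2.61, was -3.29 with a pseudocount of 0.1, -1.41 with a pseudocount of 5 and -2.90 to -2.27 with 1 library left out. After heat, 1 gene was called, against 2 without a filter, 6 without the trend, and 1 to 3 with 1 library left out (2 without prp43a heat library 1, 3 without prp43a heat library 2). Single libraries turned the sign of small differences after heat: with 1 library left out LTI65 ranged over -0.084 to 0.53, KIN1 over -0.14 to 0.56, KIN2 over -0.0064 to 0.19 and AT2G41190 over -0.056 to 0.29. The sign turned without prp43a heat library 2 for LTI65 and without WT heat library 2 for the others.

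For heat against control in prp43a the median over the 9 genes, 1.15, was 0.57 with a pseudocount of 5. In WT the median, -2.68, was -2.93 with a pseudocount of 0.1, -1.57 with one of 5, -2.94 with median-of-ratios scaling and -2.85 with quantile scaling. No member changed sign under either scaling in either heat comparison. The causes of these shifts were not tested.

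The replicate numbers did not pair the libraries: the deviations of same-numbered libraries from their group means correlated at -0.01 to 0.03. With a replicate block, 10 genes were called at control temperature and 1 after heat.

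Depth limits the LEA genes most. LEA7, AT3G02480 and AT3G17520 had no heat library above 3 reads.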
